A study of Mus musculus with 18 samples.

Results

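The genes described here are 10 components of glycolysis: the glucose transporter gene Slc2a1 and the enzyme genes Hk2, Pfkp, Aldoa, Gapdh, Pgk1, Pgam1, Eno1, Pkm and Ldha. They were taken as a fixed list of symbols, matched to Ensembl IDs, and all 10 were present in each of the 3 deposited tables, among 13787 genes listed in at least 1 of them. RNA was sequenced from 18 samples of mouse acute myeloid leukemia (AML) driven by the MLL/ENL fusion and Nras. The leukemia cells were grown in syngeneic C57BL/6 recipients, and GFP-positive cells were sorted from the marrow of mice with established disease. All groups are of this transplanted leukemia model and differ in p53 status, drug and time. CX-5461 is an inhibitor of RNA polymerase I, the enzyme that transcribes ribosomal RNA.

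The 6 groups had 3 samples each. Mice with p53null AML were given CX-5461 or vehicle for 10 h, and mice with p53WT AML were given either for 72 h or for 10 h. The sources used here do not give the dose. The titles of p53null and p53WT AML at 10 h carry different tags whose meaning is not given, so a difference between genotypes cannot be told apart from a difference between leukemias. The titles at 72 h carry neither tag. Whether the p53WT samples at 72 h and at 10 h come from the same leukemia is not given. The labels do not say whether samples of a group came from separate animals, so p-values measure the spread between these samples, which may be technical. Counts per library were available for p53WT AML at 10 h, with 21578685 to 37244725 counts in the CX-5461 (CX) libraries and 22090394 to 48118513 in the vehicle libraries. For the p53null comparison and the 72 h comparison the deposited tables hold fold changes, mean levels and p-values, with no value per library and an unknown depth. Cdkn1a, a p53 target, had a log2 fold change with CX-5461 of -0.03 in p53null AML, 1.70 in p53WT AML at 72 h and 2.25 in p53WT AML at 10 h in the authors' deposited tables. Trp53 itself was listed at a mean of 61.5 CPM (counts scaled to the library total) in the p53null table and at 169 CPM in the p53WT table at 10 h.

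Glycolysis takes up glucose and splits it to pyruvate in the cytosol, with a small gain of ATP. The transporter lets glucose in without using ATP, hexokinase and phosphofructokinase spend ATP, and the enzymes from aldolase to pyruvate kinase carry out the split and recover ATP. Lactate dehydrogenase turns pyruvate to lactate and restores the NAD+ that Gapdh needs. Many proliferating cells, leukemia cells among them, run this route in the presence of oxygen, and its genes are known targets of HIF1 and MYC.

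The reads of several of these genes cannot be placed with certainty, since retrocopies of glycolysis genes are spread over the mouse genome. In the transcripts of GENCODE vM21 (GRCm38, another build than the mm9 named in the submitters' processing notes), 90.4% of the 50-base stretches of the Gapdh transcript occurred exactly in at least 1 other gene outside its locus. These were 222 genes, of which 213 are annotated as pseudogenes. The share was 72.2% for Eno1, 68.0% for Pgk1, 41.5% for Pgam1, 30.5% for Pkm, 16.6% for Ldha and 13.5% for Aldoa. For Slc2a1, Hk2 and Pfkp 0 such stretches were found, so the transporter and the enzymes of the entry steps are the members free of annotated copies at this length. The coding stretch of Gapdh shared with the largest number of other genes is shown as the clearest case, from coding base 493 to 542, on mouse chromosome 6, minus strand, and it occurred in 84 other genes:
Gapdh: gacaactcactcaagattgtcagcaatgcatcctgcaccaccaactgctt

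Levels between genes were compared as CPM per kb of transcript, again with GENCODE vM21 lengths. In the vehicle libraries of p53WT AML at 10 h, Pkm had the highest level at 804 ± 36.2 CPM per kb (SD, n = 3), followed by Aldoa at 496 ± 17.4 CPM per kb. Ldha (334 ± 15.4) and Eno1 (311 ± 9.27) came next on the same scale, then Pgam1 (224 ± 6.86) and Pgk1 (195 ± 16.2). Pfkp (25.7 ± 2.69), Hk2 (21.5 ± 2.94), Gapdh (17.0 ± 0.672) and Slc2a1 (6.26 ± 0.951) were the 4 lowest. In the vehicle libraries the ranges of Pfkp and Hk2 overlapped, as did those of Ldha and Eno1. These ranges run across libraries and do not compare the 2 genes within each library, and no difference between neighbours was tested. The order of the means was the same in the CX libraries, where Pkm had 789 ± 8.14, Ldha 376 ± 5.53, Eno1 296 ± 2.74, Pfkp 28.6 ± 1.19 and Hk2 24.4 ± 1.52 CPM per kb and neither pair overlapped. Gapdh, which carries out the oxidation step at the middle of the pathway, thus stood below the enzymes directly before and after it, and it is also the member with the largest share of sequence found elsewhere. The part of shared sequence in its level was not tested. Nor was its part in the order of the other members, Eno1 and Pgk1 among them.

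**Figure D1:**
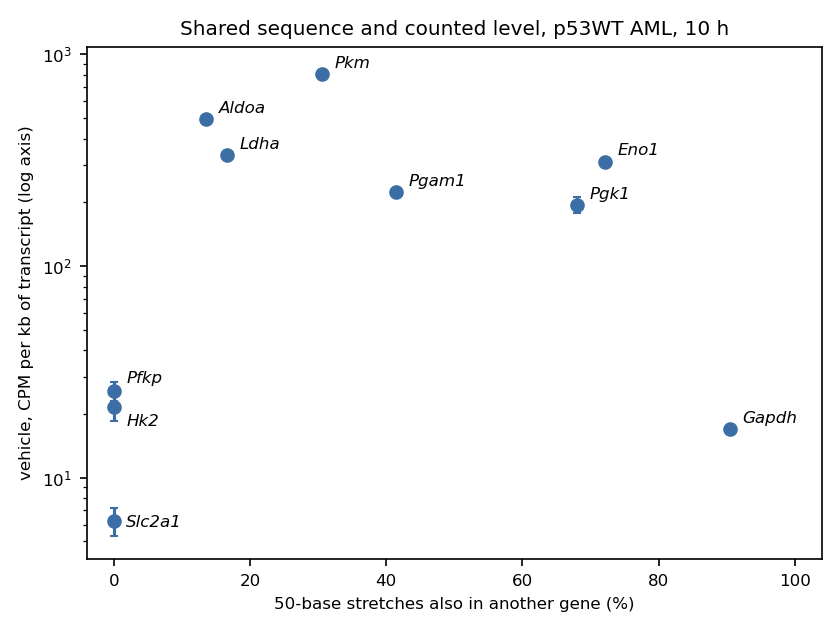
For each of the 10 genes, the share of 50-base transcript stretches found in another annotated gene (x axis, percent) against the mean level in the vehicle libraries of p53WT AML at 10 h (y axis, CPM per kb, log axis; bars are SD, n = 3). Gapdh lies alone at the lower right, with 90.4% of its stretches shared and 17.0 CPM per kb.

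The tables themselves differed in how many of these genes they list. Genes that share a stretch with a member are called copies below, though some match it over a small part only. Of the 222 genes that share a 50-base stretch with Gapdh, the authors' deposited tables list 24 for p53null AML, 18 for 72 h of p53WT AML and 4 for 10 h of p53WT AML. Their mean levels summed to 3136 CPM, 2575 CPM and 38.2 CPM in these tables, while Gapdh itself was listed at 44.3 CPM, 23.6 CPM and 22.9 CPM. The 38.2 CPM include 10.2 CPM of 3000002C10Rik and 8.73 CPM of the protein-coding gene Peli2. These 2 genes hold 9.48% and 6.86% of the Gapdh stretches. The pseudogene Gm10566 alone was listed at 1537 CPM in the p53null table and 1201 CPM in the 72 h table, and it is not listed in the table for p53WT AML at 10 h. Copies of Eno1 summed to 680 CPM in the p53null table, 465 CPM in the 72 h table and 223 CPM in the table for p53WT AML at 10 h. Those of Pgk1 summed to 204, 122 and 111 CPM and those of Ldha to 70.2, 48.9 and 7.40 CPM in the same order. Copies of Pgam1 went the other way, with 16.1 CPM, 11.2 CPM and 69.3 CPM. The sources used here do not say how reads with several matches were treated, and why the lists of copies differ was not tested.

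The first comparison was that of CX-5461 with vehicle in p53WT AML at 10 h. None of the 10 genes passed the test. The main test was the quasi-likelihood fit of edgeR, with p-values adjusted over all 12679 genes by the Benjamini-Hochberg (BH) method and called under 0.05. It called 0 members, where it called 8.10% of all genes (3.78% higher and 4.32% lower). The number of members at an unadjusted p under 0.05 was also 0, against 3979 of all 12679 genes, and DESeq2, limma-voom, the edgeR exact test and the authors' deposited table each called 0. The last of these called 10.4% of all genes, 3.57% higher and 6.83% lower. The median log2 fold change of the members was 0.08, against 0.00 over all genes, with 6 members positive and 4 negative. Every 95% interval of a member's fold change lay between 0.779 and 1.45, so that a change of 1.5-fold in either direction was outside the interval of each. Smaller changes are within these intervals.

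At the entry of the pathway, Slc2a1 (ENSMUSG00000028645), which encodes the transporter GLUT1, had 28.2, 23.3 and 20.9 CPM in the CX libraries and 24.0, 18.7 and 18.6 CPM in the vehicle libraries. The groups overlapped, since CX library 3 and vehicle library 1 crossed, and the log2 fold change was 0.20 (SE 0.142). Slc2a1 had the largest SD of log2 CPM among the members, 0.21 in CX and 0.20 in vehicle libraries, on 411 to 1155 counts per library. Hk2, the hexokinase that traps glucose as glucose phosphate, had 144, 131 and 129 CPM in the CX libraries and 119, 102 and 135 CPM in the vehicle libraries. Vehicle library 3 reached the CX values, and the log2 fold change was 0.15 (SE 0.0856). Pfkp, the platelet-type phosphofructokinase of the committed step, had 122, 113 and 121 CPM in the CX libraries and 119, 97.1 and 103 CPM in the vehicle libraries. Its vehicle library 1 lay within the CX range, and the log2 fold change was 0.12 (SE 0.0724). In edgeR's quasi-likelihood fit the BH-adjusted p was 0.376 for Slc2a1, 0.280 for Hk2 and 0.313 for Pfkp.

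Among the enzymes of the split and the first ATP gain, Aldoa, the aldolase, had 742, 735 and 761 CPM in the CX libraries and 796, 766 and 743 CPM in the vehicle libraries. The groups overlapped at vehicle library 3, and the log2 fold change was -0.08 (SE 0.0579). Gapdh had 25.2, 22.5 and 24.8 CPM in the CX libraries and 21.3, 21.0 and 22.6 CPM in the vehicle libraries, with an overlap of CX library 2 and vehicle library 3. Its log2 fold change was 0.12 (SE 0.0697). Pgk1, the phosphoglycerate kinase that makes ATP, had 326, 338 and 320 CPM in the CX libraries and 342, 389 and 334 CPM in the vehicle libraries. Vehicle library 2 was the highest, and the log2 fold change was -0.16 (SE 0.0858). By the same edgeR fit the BH-adjusted p was 0.357 for Aldoa, 0.279 for Gapdh and 0.253 for Pgk1.

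At the exit of the pathway, 3 genes had groups that did not overlap in CPM on plain library totals. Such separation was found for 39.6% of all genes, so 3 of 10 is not above the background. With library sizes scaled by the TMM method of edgeR, the groups of Pgam1 overlapped. Its log2 CPM minus the vehicle mean was then 0.0022 in CX library 1 and 0.0234 in vehicle library 1. Ldha, the lactate dehydrogenase subunit common in fast-growing cells, had 679, 693 and 673 CPM in the CX libraries and 622, 622 and 573 CPM in the vehicle libraries. All CX libraries lay above all vehicle libraries, with a log2 fold change of 0.13 (SE 0.0660). Pgam1, the phosphoglycerate mutase, had 411, 426 and 425 CPM in the CX libraries and 409, 385 and 400 CPM in the vehicle libraries, again with the CX libraries above, at a log2 fold change of 0.04 (SE 0.0469). Eno1, the enolase, went the other way, with 596, 605 and 596 CPM in the CX libraries, below the 652, 619 and 621 CPM of the vehicle libraries, at a log2 fold change of -0.12 (SE 0.0516). Pkm, the pyruvate kinase, had 1900, 1939 and 1921 CPM in the CX libraries and 2022, 1991 and 1856 CPM in the vehicle libraries, which overlapped, at a log2 fold change of -0.07 (SE 0.0667). For these exit steps edgeR gave a BH-adjusted p of 0.232 for Ldha, 0.584 for Pgam1, 0.178 for Eno1 and 0.509 for Pkm.

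**Figure D2:**
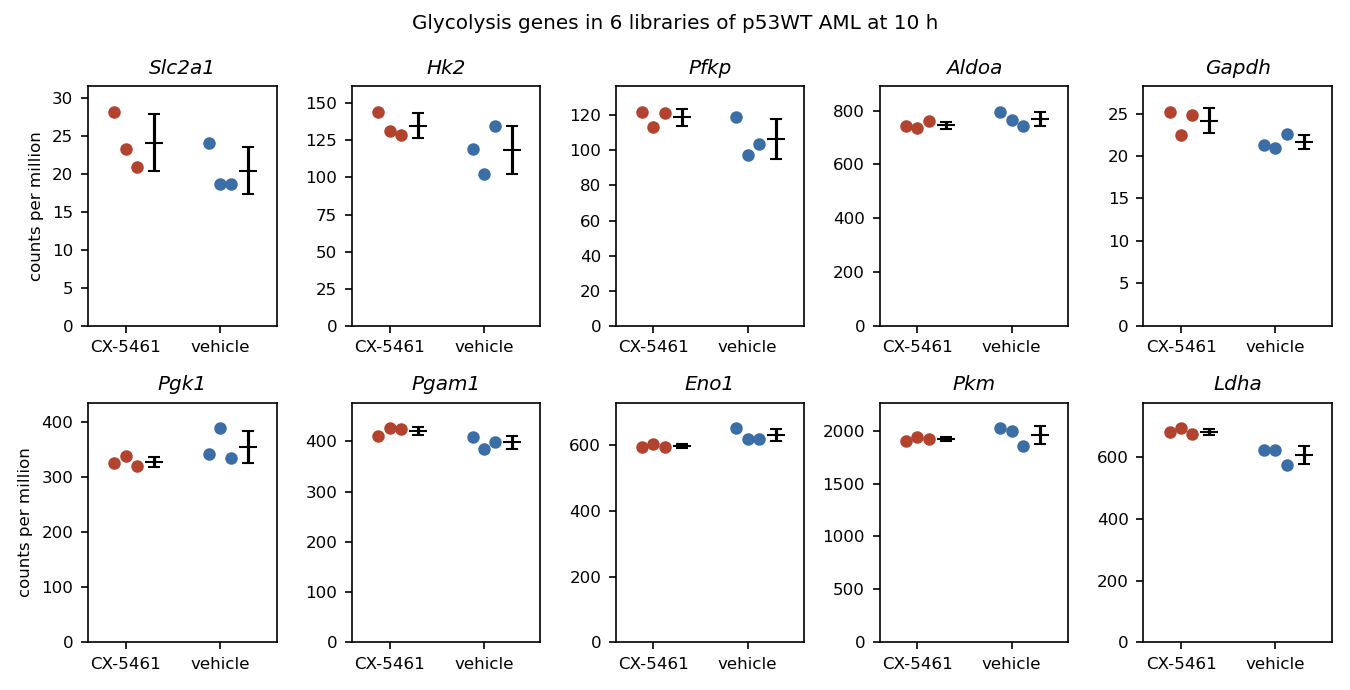
CPM (y axis, from 0) of the 10 genes in the 3 CX-5461 (left, red) and 3 vehicle (right, blue) libraries of p53WT AML at 10 h; the bar beside each group is the mean ± SD. On this scale of plain library totals the groups separate for Ldha, Pgam1 and Eno1 (Pgam1 not with TMM-scaled library sizes), and none of the 10 passed the test.

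Summed over the members, the groups overlapped. CPM of the 10 genes added up to 4973, 5026 and 4991 in the CX libraries and to 5126, 5011 and 4806 in the vehicle libraries. The means were 4997 ± 27.0 CPM in CX libraries and 4981 ± 162 CPM in vehicle libraries (SD, n = 3 each), with p = 0.9 in an exact two-sided permutation test, for which the smallest possible p is 0.1. For 8 of the 10 members the SD of CPM was smaller in CX than in vehicle libraries, and the vehicle libraries also varied more over all genes, with a median SD of log2 CPM of 0.07 in CX libraries and 0.13 in vehicle libraries.

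Markers of marrow cell types moved in the same libraries. Of 16 erythroid genes 15 were measured, 10 were called lower by edgeR's quasi-likelihood fit and 0 higher, and their summed level was 251 to 456 CPM in the CX libraries and 646 to 18812 CPM in the vehicle libraries. Of 16 neutrophil maturation genes 13 were lower and 0 higher, with sums of 3511 to 4726 CPM in CX libraries and 8125 to 19475 CPM in vehicle libraries. Of 15 monocyte and macrophage genes 3 were lower and 0 higher, with sums of 1666 to 2135 CPM in CX libraries and 2291 to 3364 CPM in vehicle libraries. None of the measured markers was at 0 in a library. Of the leukemia and progenitor genes (Ptprc, Kit, Mpo, Hoxa9, Meis1, Myb, Elane, Ctsg) all 8 were measured, with a sum of 16362 to 16719 CPM in CX libraries and 11244 to 15437 CPM in vehicle libraries, and 1, Ptprc, was lower. The B cell, megakaryocyte, stromal and endothelial, and mast cell lists had 0 genes called by that edgeR fit, with 1 gene of each at an unadjusted p under 0.05. Of the T and NK cell list 2 genes were measured, and they went opposite ways. Nkg7 rose (log2 fold change 0.51), while Cd3d had a log2 fold change of -1.79 and was not called (BH-adjusted p 0.110 in edgeR's fit). The cells had been sorted as GFP-positive, a gate meant to leave out cells of the host. Which cells held the marker RNA cannot be told from these bulk samples. Fewer cells of a type and less RNA per cell cannot be told apart in them either. Relative to the CX mean, the median log2 CPM of the glycolysis members was 0.03, -0.04 and -0.06 in vehicle libraries 1, 2 and 3, while that of the erythroid genes was 5.19, 6.93 and 2.20.

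**Figure D3:**
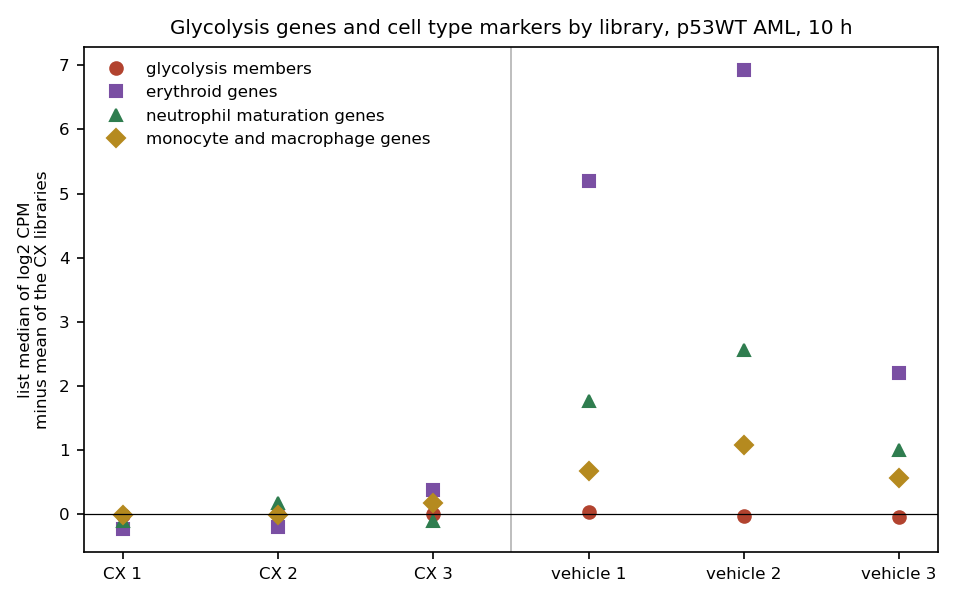
Median over each gene list of log2 CPM minus the mean of the CX libraries (y axis, log2 units) in the 6 libraries of p53WT AML at 10 h (x axis, CX libraries left of the line, vehicle libraries right). The glycolysis genes stay near 0 in all 6 libraries, while the erythroid median reaches 6.93 in vehicle library 2 and the neutrophil and monocyte medians are above 0 in each vehicle library.

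Around these members, other genes of glucose use did change at 10 h in p53WT AML. Of 91 measured genes in 6 lists (other glycolysis enzymes, other glucose and lactate transport, regulators of glucose use, the pentose phosphate pathway, gluconeogenesis and glycogen, and hypoxia-inducible genes), edgeR's quasi-likelihood fit called 9 lower and 3 higher, where 4.32% of all genes were lower and 3.78% higher. The second glucose transporter gene, Slc2a3 (GLUT3), fell to 28.2, 32.0 and 26.8 CPM in the CX libraries, against 69.4, 125 and 60.5 CPM in the vehicle libraries. Its log2 fold change was -1.61 (SE 0.290) with a BH-adjusted p of 0.0344 in edgeR, and it was the 1 gene called of 9 measured transport genes. Slc2a1 and Slc2a3 thus had values of opposite sign, though the difference between them was not tested. The order of Slc2a3 over the vehicle libraries, highest in library 2 and lowest in library 3, is also that of the summed erythroid and neutrophil markers. In the fit that held the erythroid level as a covariate, the log2 fold change of Slc2a3 was -0.55 and edgeR did not call it (BH-adjusted p 0.535). That fit called 19 of all genes, against 1027 without the covariate. The erythroid level did not overlap between CX and vehicle libraries, so this fit cannot tell it apart from treatment.

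Of 13 measured other enzymes of glycolysis, 2 fell and 0 rose. Hk1, the hexokinase isoenzyme expressed in most tissues, had 208, 210 and 214 CPM in the CX libraries and 248, 246 and 237 CPM in the vehicle libraries, with a log2 fold change of -0.25 (SE 0.0511). Ldhb, the other main lactate dehydrogenase subunit, had 20.3, 18.8 and 19.6 CPM in the CX libraries and 30.4, 36.4 and 25.6 CPM in the vehicle libraries, a log2 fold change of -0.70 (SE 0.146). Bpgm, which makes the red cell regulator of hemoglobin, had at most 17.3 CPM in each CX library and 64.1, 163 and 18.2 CPM in the vehicle libraries. Its vehicle values followed the order of the erythroid sums (5765, 18812 and 646 CPM), and edgeR's quasi-likelihood fit did not call it (BH-adjusted p 0.0743), while the authors' deposited table did (FDR 0.000171). Adpgk, an ADP-dependent glucokinase, had a BH-adjusted p of 0.0556 in edgeR's fit, at a log2 fold change of -0.55.

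Among 27 regulators, 2 fell and 0 rose. These were Pfkfb4 (log2 fold change -0.75), a bifunctional enzyme that sets the level of the activator of phosphofructokinase, and Txnip (-0.57), which restrains glucose uptake. Tigar, a p53 target in human cells that lowers that activator, had 66.5, 67.8 and 60.9 CPM in the CX libraries and 55.5, 48.4 and 56.0 CPM in the vehicle libraries. Its groups did not overlap, and edgeR's fit gave it a BH-adjusted p of 0.0562, at a log2 fold change of 0.25 (SE 0.0641). In the pentose phosphate pathway, 1 of 10 genes rose and 1 fell: Prps2 (0.36), which makes the ribose donor of nucleotides, and G6pdx (-0.45), the entry enzyme. In gluconeogenesis and glycogen, 2 of 13 fell and 0 rose, among them the glycogen phosphorylase gene Pygl (-0.57). Of 19 hypoxia-inducible genes outside glycolysis 2 rose, the mTORC1 inhibitor Ddit4 (1.30) and the hydroxylase Jmjd6 (0.34), and 1 fell, Ndrg1 (-0.82). Leaving out CX library 1, 2 or 3 in turn left 0 calls in the 6 lists by edgeR's fit, against 12 with all libraries. Over all genes these fits called 24, 23 and 23 higher and 1, 0 and 0 lower. With all libraries the counts were 479 higher and 548 lower. The fit with the erythroid covariate called 2 in the 6 lists, both higher, and 19 higher and 0 lower over all genes. The authors' deposited table called 2 higher and 12 lower in the 6 lists, and Prps2 (FDR 0.0550), Jmjd6 (FDR 0.0641) and Hk1 (FDR 0.221) were not among them.

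In p53null AML at 10 h, the authors' deposited table called 0 of the 10 members, where it called 0.187% of all genes (0.148% higher and 0.0389% lower). The authors' p-value was under 0.05 for 2 members, Pfkp (log2 fold change 0.13, p 0.0361, FDR 0.787) and Gapdh (-0.15, p 0.0387, FDR 0.797), as for 781 of all 12861 genes in that table. The other members lay between -0.15 for Slc2a1 and 0.11 for Aldoa in the authors' deposited table. The median over the members was 0.01, with 6 positive and 4 negative, against 0.00 over all genes. Of 91 measured genes in the 6 lists, 0 were called in the authors' deposited table, and 8 had an unadjusted p under 0.05. In the authors' deposited tables at 10 h, Slc2a3 had a log2 fold change of -0.06 in p53null AML and of -1.60 in p53WT AML. Ldhb, called in p53WT AML, is not listed in the p53null table. Of 16 erythroid genes, 6 are listed there, and 0 of these, 0 of 16 neutrophil genes and 0 of 15 monocyte and macrophage genes were called, so the marker shifts of p53WT AML were not called there.

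At 72 h in p53WT AML, 4 of the 10 members were called in the authors' deposited table, where 31.2% of all genes were called (16.1% higher and 15.1% lower). Pkm rose 1.36-fold (log2 fold change 0.44, FDR 1.73e-05), Eno1 1.20-fold (0.26, FDR 0.0277) and Ldha 1.15-fold (0.20, FDR 0.0216). Pfkp, from the committed step, fell to 0.865 of its vehicle level (-0.21, FDR 0.0252). A count of 4 in 10 stands near the background of 31.2%, and with an FDR threshold of 0.01 Pkm alone is called. The 6 members not called in the authors' deposited table were Gapdh (0.16), Pgk1 (0.14), Aldoa (0.05), Hk2 (0.03), Slc2a1 (-0.14) and Pgam1 (-0.15).

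The copies of Eno1 rose with it in the authors' deposited table, Eno1b by 0.24 on the log2 scale (FDR 0.0342) and the pseudogene Gm4735 by 0.22 (FDR 0.0491). They share 70.5% and 52.8% of the 50-base stretches of Eno1, so the 3 genes cannot be read as separate measurements. For Pkm 0 of 7 copies are listed in that table, and for Pfkp no copy was found. The median over the members was 0.09 at 72 h and 0.08 at 10 h, against -0.01 and 0.00 over all genes in the authors' deposited tables. Whether any member's response differs between 72 h and 10 h, or between p53null and p53WT AML, was not tested, since no values per library are at hand for 2 of the tables.

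**Figure D4:**
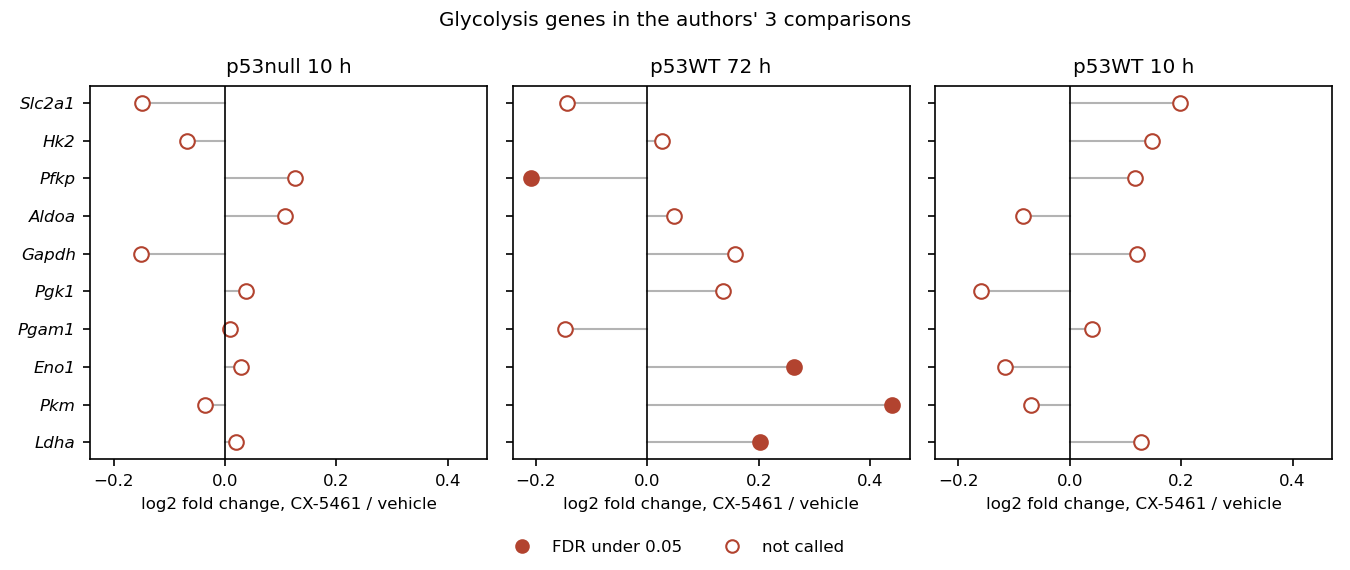
The authors' log2 fold change of the 10 genes, CX-5461 over vehicle (x axis), for p53null at 10 h, p53WT at 72 h and p53WT at 10 h (left to right), with genes in pathway order from the transporter at the top to Ldha at the bottom. Filled points passed an FDR of 0.05: Pfkp (-0.21), Eno1 (0.26), Pkm (0.44) and Ldha (0.20), all at 72 h.

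The promoters of the 4 genes called at 72 h are printed because motifs for HIF1 and MYC, the known regulators of this pathway, can be read in them. The sequences are from RefSeq (GRCm38.p6), from 250 bases before to 50 bases after an annotated start, and for each gene the window with most matches is shown (the one listed first where windows tie). Capitals mark ACGTG and GCGTG, the core letters of HIF1 sites, on either strand, and so include CACGTG, the E-box read by MYC, which overlaps ACGTG on both strands.
Pfkp, chr13:6648722-6649021, minus strand: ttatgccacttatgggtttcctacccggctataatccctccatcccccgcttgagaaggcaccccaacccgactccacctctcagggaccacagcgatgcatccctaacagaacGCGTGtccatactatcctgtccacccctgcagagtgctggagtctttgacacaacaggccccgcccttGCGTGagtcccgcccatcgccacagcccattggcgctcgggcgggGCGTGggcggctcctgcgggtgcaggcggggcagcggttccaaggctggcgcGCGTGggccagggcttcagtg
Eno1, chr4:150236458-150236757, plus strand: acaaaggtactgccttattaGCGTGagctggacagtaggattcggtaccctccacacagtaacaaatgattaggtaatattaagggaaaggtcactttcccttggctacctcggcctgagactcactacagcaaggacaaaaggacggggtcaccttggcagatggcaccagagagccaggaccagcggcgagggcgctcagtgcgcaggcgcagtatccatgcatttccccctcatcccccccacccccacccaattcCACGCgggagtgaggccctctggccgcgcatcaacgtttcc
Pkm, chr9:59656977-59657276, plus strand: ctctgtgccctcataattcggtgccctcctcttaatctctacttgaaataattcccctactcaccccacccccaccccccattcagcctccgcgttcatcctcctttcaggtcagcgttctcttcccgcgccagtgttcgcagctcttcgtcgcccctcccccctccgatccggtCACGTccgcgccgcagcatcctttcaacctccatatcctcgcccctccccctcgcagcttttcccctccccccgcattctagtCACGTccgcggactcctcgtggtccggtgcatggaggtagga
Ldha, chr7:46845554-46845853, plus strand: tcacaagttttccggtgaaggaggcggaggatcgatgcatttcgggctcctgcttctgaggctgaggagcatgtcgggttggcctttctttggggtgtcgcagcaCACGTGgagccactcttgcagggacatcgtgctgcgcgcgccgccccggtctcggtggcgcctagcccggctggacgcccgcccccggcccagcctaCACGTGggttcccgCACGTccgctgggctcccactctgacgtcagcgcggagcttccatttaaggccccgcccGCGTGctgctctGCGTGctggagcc

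Ldha carried 2 CACGTG sites, and it was the only member with this motif, which was found in 7.15% of all 32851 windows of the table. Of the 16 windows of the 10 members, 14 held ACGTG or GCGTG, against 43.8% of all windows, and each of the 10 genes had at least 1 such window. These windows are not all separate. Windows 2 and 3 of Aldoa overlap and hold the same ACGTG, and windows 2 and 3 of Eno1 overlap and hold the same 2 GCGTG. The background of all windows was not matched to the members in base composition, so the shares do not measure an enrichment. Pfkp, which fell at 72 h, held GCGTG 4 times, and the rising Pkm held ACGTG in 1 of its 2 windows. A match is a description of the letters, and members called in either direction held such letters.

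The regulators of these motifs and the other hypoxia-inducible genes were measured in the same table. At 72 h Myc fell by 0.77 on the log2 scale (FDR 1.02e-09) in the authors' deposited table, and Hif1a had a value of -0.12 (FDR 0.285). Of 20 hypoxia-inducible genes outside glycolysis, 7 fell and 5 rose, where 15.1% of all genes were lower and 16.1% higher. Their median was -0.07. The falls were those of Ankrd37 (-1.65), the mitophagy gene Bnip3 (-0.81), the collagen hydroxylase gene P4ha1 (-0.78), the oxygen sensor gene Egln3 (-0.71), the carbonic anhydrase gene Car9 (-0.42), the MYC antagonist gene Mxi1 (-0.34) and the demethylase gene Kdm3a (-0.31). The rises were those of the heme-degrading enzyme gene Hmox1 (2.81), Ddit4 (0.60), Jmjd6 (0.57), the transferrin receptor gene Tfrc (0.42) and Fam162a (0.29). Pdk1, a hypoxia-inducible kinase that holds pyruvate back from the mitochondrion, fell by 0.70, and Mpc2, a subunit of the mitochondrial pyruvate carrier, rose (0.47). The other calls among 27 regulators were Myc and Esrra (0.25).

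Over the 6 related lists, 16 of 92 genes rose and 17 fell at 72 h in the authors' deposited table, against 16.1% higher and 15.1% lower over all genes. Of the other glycolysis enzymes 3 of 13 rose and 4 fell. Adpgk (0.84), the glucose phosphate isomerase gene Gpi1 (0.23) and Hk1 (0.21) rose, while Ldhb (-1.01), Gapdhs (-0.81), Eno3 (-0.51) and the liver-type phosphofructokinase gene Pfkl (-0.30) fell. With Pfkl and Pfkp lower, 2 of the 3 phosphofructokinase genes fell, and the muscle-type gene Pfkm had a value of 0.28 (FDR 0.0666) in the authors' deposited table. The lactate dehydrogenase subunits were called in opposite directions, Ldha at 0.20 and Ldhb at -1.01. Among 9 transport genes, Slc2a3 (0.95) and the lactate exporter gene Slc16a3 (0.23) rose, and the monocarboxylate transporter genes Slc16a1 (-0.38) and Slc16a7 (-0.40) fell.

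In the pentose phosphate pathway 1 of 10 genes rose, G6pdx (0.42), and 0 fell. In gluconeogenesis and glycogen 3 of 13 rose, among them Pygl (0.51) and Ugp2 (0.25), and 2 fell, the mitochondrial enzyme gene Pck2 (-0.52) and the phosphatase gene G6pc3 (-0.31). Slc2a3, Adpgk, G6pdx and Pygl were higher at 72 h and lower at 10 h in the authors' deposited tables, with log2 fold changes of 0.95 and -1.60, 0.84 and -0.55, 0.42 and -0.45, and 0.51 and -0.57, and all 8 values passed the FDR of 0.05. These genes were singled out because their values turned. Ldhb, lower at both times, and Ddit4, higher at both times, did not turn. The marker lists had medians of opposite sign at 72 h and 10 h. Of 16 neutrophil genes 15 rose and 0 fell at 72 h with a median of 1.03, while 0 rose and 16 fell at 10 h with a median of -1.94. The erythroid medians were 1.18 at 72 h and -5.57 at 10 h, and those of the monocyte and macrophage genes 0.76 and -0.74. Of the leukemia and progenitor genes 4 fell and 1 rose at 72 h, with Kit at -0.87. Their part in these changes, and in those of Pkm, Eno1, Ldha and Pfkp, was not tested, since summed levels per library are not at hand for 72 h.

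**Figure D5:**
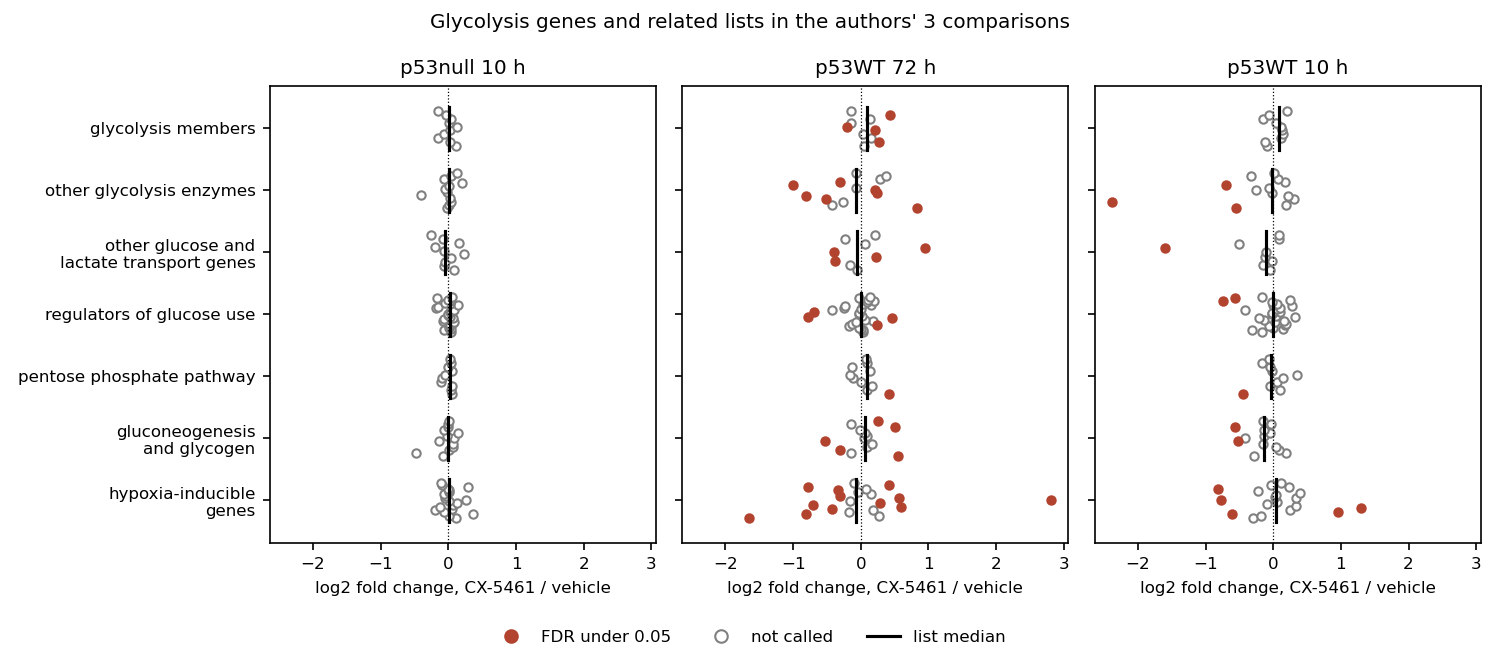
The authors' log2 fold change, CX-5461 over vehicle (x axis), of each measured gene of the 10 members and 6 related lists (rows), for p53null at 10 h, p53WT at 72 h and p53WT at 10 h (left to right). Red points passed an FDR of 0.05 and black bars are list medians; the members span -0.21 to 0.44 at 72 h, while Hmox1 reaches 2.81 and, at 10 h, Bpgm lies at -2.38.

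The mean levels of the members also differed between tables, which the authors normalized separately. In the authors' deposited tables, 9 of 10 members had a higher mean level in p53null AML than in p53WT AML at 10 h, with a median difference of 0.67 log2 units, against -0.07 over 11879 shared genes, of which 43.3% were higher in p53null AML. Slc2a1 was listed at 48.1 CPM in p53null AML and 22.3 CPM in p53WT AML, Pfkp at 229 and 112 CPM, Pgk1 at 627 and 341 CPM, and Aldoa at 1128 and 755 CPM. Ldha was the exception, with 538 CPM in p53null AML and 642 CPM in p53WT AML. Of the 3 members with 0 shared 50-base stretches, Slc2a1 and Pfkp differed as given, while Hk2 was listed at 130 CPM in p53null AML and 126 CPM in p53WT AML. For Gapdh, Eno1, Pgk1, Pgam1 and Ldha the summed levels of the copies listed differ between the tables as given above. Between 72 h and 10 h of p53WT AML, 9 of 10 members were likewise higher at 72 h, by a median of 0.13, against -0.07 over all shared genes, and Ldha was listed at 382 CPM at 72 h and 642 CPM at 10 h. No test of these levels was made, and table, time, genotype and leukemia cannot be told apart in them.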

How the data were processed

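Per the labels' protocols a TruSeq kit was used, of a version that keeps no strand information. CASAVA 1.8.2, Bowtie, HTSeq and edgeR are named with the mm9 build in the submitters' processing notes, with no order, settings or annotation. The authors deposited, per the file headers, raw counts per gene for 6 libraries of p53WT AML at 10 h, and for all 3 comparisons a log2 fold change, log2 mean CPM, p-value and FDR from edgeR. The 3 tables hold 12679 (p53WT, 10 h), 12861 (p53null, 10 h) and 12838 (p53WT, 72 h) genes, with symbols found for 12237, 12366 and 12362 of their IDs. Low genes are not listed: each gene with counts exceeds 1 CPM in 3 or more libraries. The count columns give the arm and a number from 1 to 3, which is not the number in the sample titles, so columns were assigned to groups only.

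TMM-normalized counts were tested with the edgeR 4.0.16 quasi-likelihood test (R 4.3.3), on treatment alone, with 4 residual degrees of freedom and Benjamini-Hochberg adjustment over all genes, called at 0.05. SE is the log2 fold change divided by the root of the F statistic, and intervals are at 95%. CPM used plain library totals, and log2 CPM a prior count of 2. The authors' log2 fold changes correlated across genes with these at r = 0.9999, so positive means higher with CX-5461; the same direction was taken for the other tables. Calls for p53null AML and 72 h are the authors' FDR under 0.05. The fit was checked on simulated counts. Alternatives were RLE, library size alone, DESeq2 1.42.0, limma-voom 3.58.1, the exact test, robust estimation, a mean of at least 5 CPM, a replicate block, an erythroid covariate and leaving out each library. The members and lists were chosen with earlier results of these data known. The rule for naming took all members and, from each related list, the 3 genes with the smallest p in a comparison; other genes named from these lists and the marker lists were chosen after their values were seen. The values of 1 gene that the rule takes are not reported here. Shared stretches were exact matches of 50 bases on either strand, counted in the transcript with the longest coding sequence.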

Additional observations from a re-analysis of the deposited data

How the results depend on the processing

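The 0 calls among the glycolysis members of p53WT AML at 10 h held under all 15 alternatives run, in which the smallest adjusted p of a member was 0.0607 (Pfkp, edgeR's quasi-likelihood fit, BH-adjusted, without vehicle library 1). Signs turned in the fit with the erythroid level as a covariate for Hk2 (-0.14), Aldoa (0.053), Pkm (0.11) and Pgk1 (0.10), none of them called, and the cause was not tested. The difference in summed CPM, CX minus vehicle, was 15.6, and it was -128 with TMM-adjusted library sizes, by that scaling; leaving out each library gave values from -71.9 to 88, negative without vehicle library 3. Genes called numbered 1027 (479 higher, 548 lower), and 2306 by DESeq2 (960 and 1346), 1716 by the exact test (696 and 1020) and 19 with the erythroid covariate (19 and 0). Calls in the 6 related lists numbered 12, and 25 by DESeq2, 19 by the exact test, 19 with the replicate block and 2 with the erythroid covariate. Leaving out each library gave 23 to 1678 calls in all (25, 23 and 23 without CX library 1, 2 or 3 and 1678 without vehicle library 1) and 0 to 17 in the 6 lists (0 without CX library 1, 2 or 3); fits without a library have fewer residual degrees of freedom. The replicate block gave 1536 calls in all. Deviations of same-numbered columns correlated at 0.30, 0.11 and 0.03, and those of differently numbered columns at -0.20 to 0.09. These values cannot settle whether the numbers pair the samples. With an FDR of 0.01, 1 member (Pkm) is called at 72 h in place of 4. At stretches of 36 and 100 bases, the shared part of Gapdh was 91.7% and 85.8%, and that of Pkm 42.7% and 6.82%; these lengths were chosen after seeing the data. Without counts, depth and spread behind the p53null and 72 h values are unknown.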

Other observations

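Of the 4 genes sharing 50-base stretches with Gapdh that are listed at 10 h in p53WT AML, 2 were called in the authors' deposited table. The transcribed pseudogene 3000002C10Rik had a log2 fold change of 0.51 (FDR 0.0199) and the protein-coding gene Peli2 one of -0.79 (FDR 0.000183), with 9.48% and 6.86% of the Gapdh stretches found in them, and Gapdh itself was at 0.12 (FDR 0.708). Both were singled out after their values were seen. The tables list 830 annotated pseudogenes for p53null AML, 757 for p53WT AML at 72 h and 721 for p53WT AML at 10 h.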
